A study of Homo sapiens with 12 samples.

Results

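Untreated KMS-11 cells were compared with untreated KMS-12 cells, both multiple myeloma lines, across all expressed genes. The members are the 4 DMSO libraries of these lines, chosen by their cell line and treatment labels from 12 libraries in the series: 2 of KMS-11 and 2 of KMS-12. All carry the genotype label WT, and DMSO was the vehicle control of an experiment in which parallel cultures, and the line RPMI8226, received 1 µM of the bromodomain inhibitor JQ1 for 72 h. Levels in the RPMI8226 DMSO libraries and the JQ1 libraries are given below for comparison. These libraries also entered the gene filter, the scaling and the estimate of spread behind the standard errors and p-values. Each group is 1 cell line, the labels do not say which KMS-12 subline was grown, and the design text spells the other line KMS-111. The experiment was done in duplicate, but no label says that the libraries of a line came from separate cultures. P-values therefore rest on the spread between libraries of a group, estimated over all 6 groups, and not on a known spread between cultures.

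Multiple myeloma is a cancer of plasma cells, the antibody-secreting end stage of the B lineage. Many cases start with a translocation that sets an oncogene beside the immunoglobulin heavy chain enhancers of chromosome 14. In t(4;14) the genes so placed are FGFR3 and NSD2, in t(14;16) MAF, and in t(11;14) CCND1, and raised expression of a D-type cyclin is common to most of them. KMS-11 is known in the field as a line with t(4;14) and t(14;16), and KMS-12 as a line with t(11;14). The lines therefore stand for different genetic classes of the disease.

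The 4 libraries held from 22338449 to 23576216 counts, within the 15424512 to 27366499 of the series. Levels are given as CPM, counts scaled to a common library total, with library sizes adjusted by TMM, a factor that balances the bulk of genes between libraries. In 1 library, 3 counts, the limit that 0 reads allow, equal 0.107 to 0.129 CPM. A fold given as "at least" sets the mean of 1 line against 3 counts over both libraries of the other, 0.0611 CPM in KMS-11 and 0.0540 CPM in KMS-12. Floors and counting intervals include no other error, and without molecular identifiers some reads may be copies of 1 molecule. The KMS-11 replicates differed from each other more than the KMS-12 replicates did (chi-square divided by its degrees of freedom, 22.3 over 21658 genes against 6.13 over 21281).

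Most expressed genes differed between the lines. Of 23493 genes tested, 14780 (62.9%) were called at an adjusted p under 0.05 (edgeR quasi-likelihood F test with Benjamini-Hochberg adjustment), 7681 (32.7%) higher in KMS-11 and 7099 (30.2%) higher in KMS-12. Among the 14238 protein-coding genes alone, 70.7% were called, 38.2% higher in KMS-11 and 32.5% higher in KMS-12. These shares are the background for the lists below. Members are nearly all protein-coding, except in the lists of long non-coding RNAs and immunoglobulin constant genes. The shares called of the BCL2 family (71.4%), homeobox cluster genes (73.3%) and imprinted genes (73.7%) lay near the protein-coding background. By 2-fold or more, 5250 genes (22.3%) were higher in KMS-11 and 4739 (20.2%) were higher in KMS-12. The median absolute log2 difference was 0.94. For 18746 genes (79.8%) the KMS-11 and KMS-12 libraries did not overlap. Scaling by library size alone moved the log2 differences by about -0.21 and changed the share of calls higher in KMS-11 from 52.0% to 43.4%, giving 6517 and 8514 calls.

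**Figure D1:**
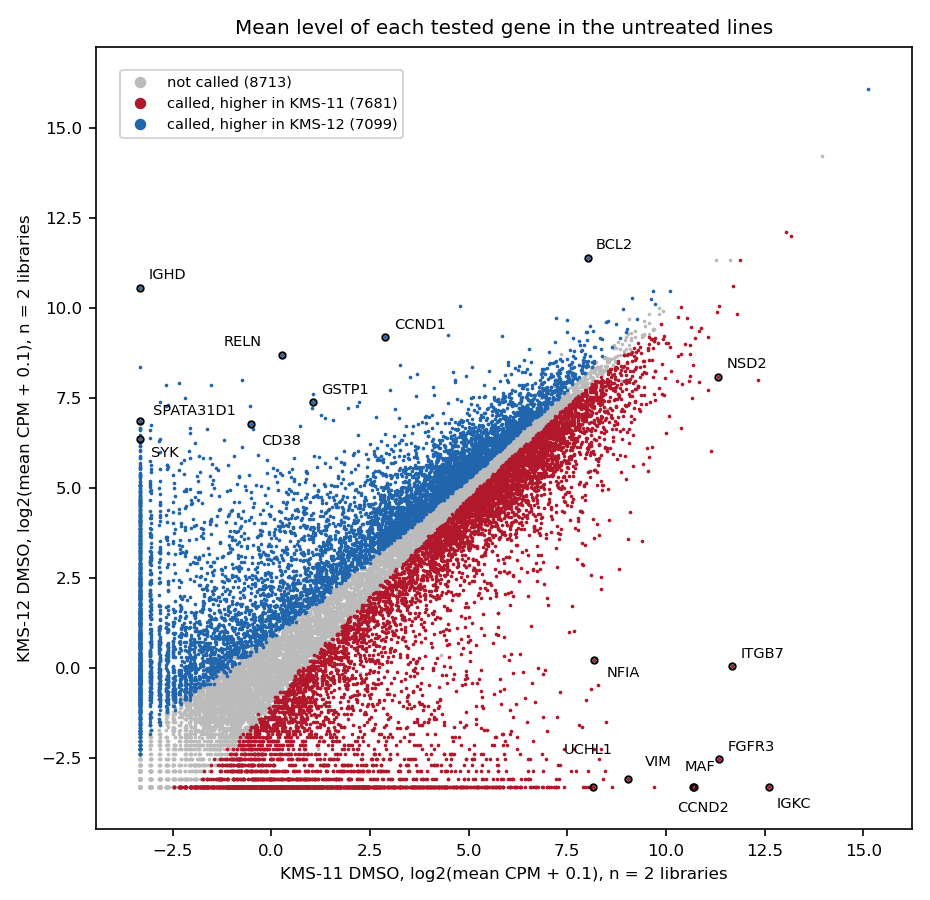
Mean CPM of each tested gene in the untreated lines, on a log2 scale after adding 0.1, with KMS-11 on the x axis and KMS-12 on the y axis (mean of 2 libraries each). Red points were called higher in KMS-11 (7681) and blue points higher in KMS-12 (7099); points along the bottom and left edges have few or no reads in 1 line.

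The genes of the common myeloma translocations separated the lines. Of the 14 translocation partner genes, all tested, 6 were called higher in KMS-11, 5 higher in KMS-12 and 3 were not called. FGFR3 (ENSG00000068078, chr4:1793293-1808872), a receptor tyrosine kinase for fibroblast growth factors, stood at 2616 and 2578 CPM in the KMS-11 libraries and 0.0713 and 0.0728 CPM in KMS-12, from 127474 and 4 reads. Neither line overlapped the other, and the ratio was 36061 (exact 95% counting interval 14084 to 132352), adjusted p = 2.01e-17. For genes with fewer than 10 reads in 1 line such ratios of summed reads replace the fitted difference. NSD2 (ENSG00000109685, chr4:1871424-1982207), a histone H3 lysine methyltransferase, was read in both lines, at 2276 and 2817 CPM in KMS-11 and 269 and 274 CPM in KMS-12. Its difference was smaller than that of FGFR3, at 3.23 ± 0.17, adjusted p = 1.69e-10. Per kilobase of exon, NSD2 stood at 129 CPM in KMS-11 and FGFR3 at 536.

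MAF (ENSG00000178573, chr16:79585843-79600714), a basic leucine zipper transcription factor, had 1616 and 1667 CPM in KMS-11 and no read in KMS-12, at least 30352-fold higher (adjusted p = 2.80e-14). RPMI8226 also had MAF, at 1176 and 964 CPM. MYCN had 4.296 and 5.94 CPM in KMS-11 and no read in KMS-12. MYC, the more widely expressed member of that family, did not differ beyond the replicate spread, with 478 and 359 CPM in KMS-11 and 384 and 349 CPM in KMS-12 (0.19 ± 0.19, adjusted p = 0.393).

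The lines expressed different D cyclins, the proteins that activate CDK4 and CDK6 to start the cell cycle. CCND2 (ENSG00000118971, chr12:4273772-4305350) stood at 1671 and 1674 CPM in KMS-11 and had no read in KMS-12, at least 30949-fold higher (adjusted p = 5.83e-13). CCND1 (ENSG00000110092, chr11:69641087-69654474) went the other way, with 6.46 and 8.18 CPM in KMS-11 and 620.0 and 549 CPM in KMS-12. The CCND1 libraries did not overlap, and the log2 difference was -6.32 ± 0.14, adjusted p = 1.67e-16. MYEOV, its neighbour on chromosome 11, had 9.405 and 13.2 CPM in KMS-11 and 276 and 263 CPM in KMS-12 (-4.58 ± 0.23, adjusted p = 3.30e-08). CCND3 was low in both, at 8.902 and 10.3 CPM in KMS-11 and 16.6 and 15.4 CPM in KMS-12 (-0.74 ± 0.16, adjusted p = 0.000491). Per kilobase of exon, the leading cyclin of KMS-11, CCND2, stood at 234 CPM and that of KMS-12, CCND1, at 121.

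**Figure D2:**
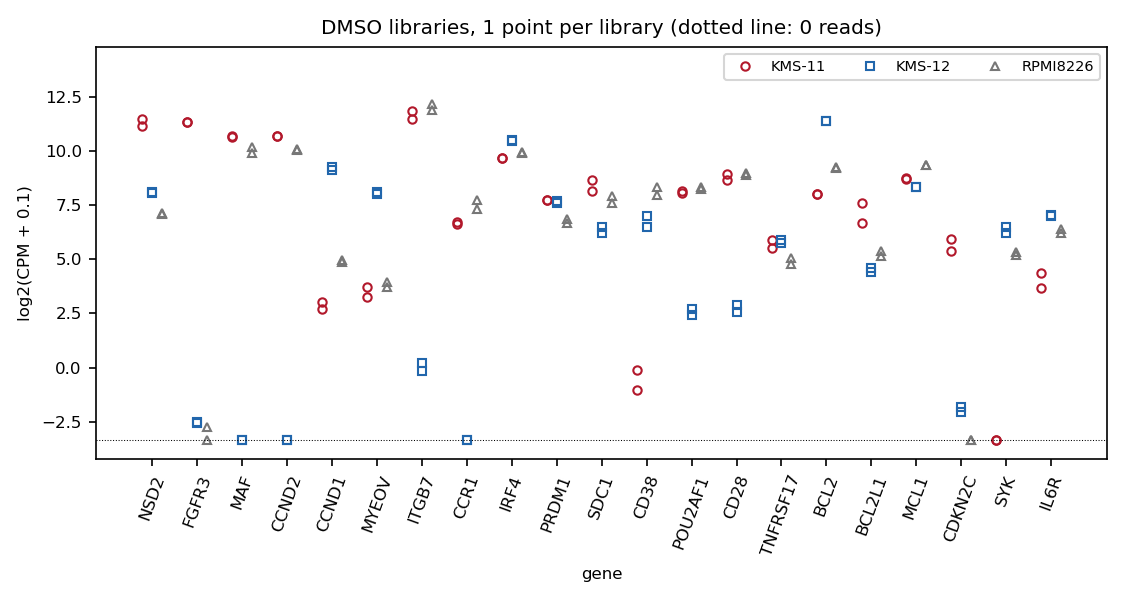
Level of 21 genes of the myeloma lists in each DMSO library, as log2(CPM + 0.1), 1 point per library, with 2 libraries per line. KMS-11 and KMS-12 lie far apart for FGFR3, MAF, CCND2, CCND1, ITGB7 and CD38 and overlap for TNFRSF17; RPMI8226 lies near KMS-11 for MAF, CCND2 and ITGB7.

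Genes associated with MAF in myeloma were higher in KMS-11: 11 of 13 tested of 14 listed were called higher there and 0 higher in KMS-12, with a median log2 difference of 10.44 (7.17 with genes at 0 reads set to their bound), against 0.01 over all genes tested. ITGB7, the integrin subunit through which cells bind E-cadherin and MAdCAM, had 2812 and 3724 CPM in KMS-11 and 1.07 and 0.801 CPM in KMS-12 (11.76 ± 0.47, adjusted p = 2.70e-08). RPMI8226 was near KMS-11, at 4652 and 3752 CPM. CCR1, a chemokine receptor, had 98.6 and 106 CPM in KMS-11 and no read in KMS-12, at least 1891-fold higher. The small GTPase gene RND3 and the signal transducer gene SMAD1 likewise had no KMS-12 read, with 25.5 and 35.5 CPM of RND3 and 25.3 and 16.9 CPM of SMAD1 in KMS-11. AHNAK, a large scaffold protein, was read in both lines, with 656 and 612 CPM against 136 and 157 CPM. The list holds CCND2, which is also a partner gene above, and its members were picked for their known relation to MAF. Which of these genes follow MAF in KMS-11 was not tested.

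Several tumour suppressors named in myeloma genetics differed. Of 25 listed and tested, 15 were called higher in KMS-11 and 4 higher in KMS-12, with a median log2 difference of 0.64. CDKN2C, an inhibitor of CDK4 and CDK6, was higher in KMS-11, with 41.3 and 61.6 CPM in KMS-11 and 0.143 and 0.182 CPM in KMS-12 from 9 reads. The ratio was 314 (exact 95% counting interval 165 to 688), adjusted p = 6.50e-07. In RPMI8226 it had no read. CDKN2A, which encodes another inhibitor of these kinases, was nearer between the lines, at 108 and 114 CPM in KMS-11 and 73.5 and 54.3 CPM in KMS-12 (0.80 ± 0.14, adjusted p = 0.000132). TENT5C, a poly(A) polymerase often mutated in myeloma, was higher in KMS-11 (2.72 ± 0.14, adjusted p = 1.65e-11), as were the acetyltransferase EP300 (1.39 ± 0.11, adjusted p = 2.23e-09) and the histone demethylase KDM6A (1.08 ± 0.14, adjusted p = 4.96e-06). BIRC2, an inhibitor of alternative NF-kB signalling, was higher in KMS-12 (-1.46 ± 0.10, adjusted p = 4.11e-10). TRAF3, which works with it, stood at 85.1 and 79.8 CPM in KMS-11 and 84.8 and 82.3 CPM in KMS-12 and was not called (-0.02 ± 0.09, adjusted p = 0.881).

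The 18 cell cycle inhibitors, D cyclins and their kinases were all tested, and 10 were called higher in KMS-11 and 4 in KMS-12. CDK6 had 626 and 629.7 CPM in KMS-11 and 231 and 222 CPM in KMS-12 (1.47 ± 0.09, adjusted p = 1.23e-10). The libraries of CDK6 did not overlap between the lines. CDKN1A, an inhibitor of cyclin-dependent kinases, was higher in KMS-11, at 33.7 and 52.3 CPM against 11.01 and 12.2 CPM.

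Single genes of the BCL2 family differed in both directions, while the family as a whole was called about as often as other genes. Among 14 tested of 17 listed, 6 were called higher in KMS-11 and 4 in KMS-12, but 3 and 4 with library size alone. The share called was 71.4%, against 70.7% of protein-coding genes. BCL2, which holds back mitochondrial cell death, stood at 258 and 258 CPM in KMS-11 and 2692 and 2704 CPM in KMS-12. Replicates were nearly equal, and the log2 difference was -3.39 ± 0.11, adjusted p = 2.56e-14. BCL2L1, which encodes BCL-XL, ran the other way, with 101 and 196 CPM in KMS-11 and 21.4 and 24.4 CPM in KMS-12 (2.69 ± 0.36, adjusted p = 0.000461). The KMS-11 replicates of that gene were far apart, yet both lay above KMS-12. MCL1 had 425 and 421 CPM in KMS-11 and 326 and 323 CPM in KMS-12, a small difference (0.38 ± 0.11, adjusted p = 0.00573) that was not called with library size alone (adjusted p = 0.162). Of the genes that promote death, BMF was higher in KMS-11, at 338 and 319 CPM against 39.7 and 32.8 CPM, and BCL2L11, which encodes BIM, was higher in KMS-12, at 295 and 345 CPM against 165 and 163 CPM.

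Most plasma cell markers were read in both lines. Of 26 tested of 28 listed, 18 were called higher in KMS-11 and 4 higher in KMS-12 (median log2 difference 1.55). Among those called higher in KMS-11, 4 had at most 3 KMS-12 reads: TNFRSF13B, which encodes the receptor TACI and had 69.05 and 77.2 CPM in KMS-11, GPRC5D, NCAM1 and LILRB4. The members not tested were CD27, with 2 KMS-11 reads and 1 KMS-12 read, and CD200, with 1 and 17. SDC1, the surface proteoglycan CD138, stood at 286 and 403 CPM in KMS-11 and 89.4 and 73.4 CPM in KMS-12 (2.08 ± 0.45, adjusted p = 0.00601). XBP1, the transcription factor of the secretory program, was also higher in KMS-11 (1.46 ± 0.14, adjusted p = 8.07e-08), and IRF4, on which myeloma cells depend, was higher in KMS-12, at 1405 and 1442 CPM against 825 and 813 CPM (-0.80 ± 0.11, adjusted p = 5.97e-06). PRDM1, which encodes the plasma cell factor BLIMP1, had 215 and 215 CPM in KMS-11 and 194 and 206 CPM in KMS-12 and was not called (0.11 ± 0.14, adjusted p = 0.513). TNFRSF17, which encodes BCMA, overlapped between the lines, at 45.6 and 60.05 CPM in KMS-11 and 53.3 and 59.9 CPM in KMS-12 (-0.10 ± 0.34, adjusted p = 0.827).

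Other identity genes were near absent from 1 of the lines. CD38, a surface enzyme and antibody target in myeloma, had 0.813 and 0.387 CPM in KMS-11 and 126 and 90.97 CPM in KMS-12 (-7.46 ± 0.32, adjusted p = 8.66e-09). IKZF1, a zinc finger factor degraded under lenalidomide, had 0.0774 and 0.0861 CPM in KMS-11 and 34.5 and 29.1 CPM in KMS-12, from 4 and 1767 reads. The ratio toward KMS-12 was 390.4 (exact 95% counting interval 152 to 1434), adjusted p = 3.28e-14. Its relative IKZF3 was abundant in both, at 1226 and 1280.2 CPM in KMS-11 and 419 and 385 CPM in KMS-12, and higher in KMS-11 (1.64 ± 0.11, adjusted p = 5.83e-10). CRBN, the receptor of that drug class, stood at 40.3 and 49.2 CPM in KMS-11 and 53.2 and 57.4 CPM in KMS-12 (-0.31 ± 0.11, adjusted p = 0.0243), a call lost without KMS-11 replicate 1 (adjusted p = 0.23) and without KMS-12 replicate 2 (0.154), and in fits of the 4 compared libraries (0.0713) or the 6 DMSO libraries alone (0.0543). The coactivator POU2AF1 was low in KMS-12, with 5.27 and 6.37 CPM against 282 and 267 CPM in KMS-11 (5.56 ± 0.13, adjusted p = 6.30e-16). CD28, a costimulatory receptor found on some myeloma cells, showed the same order, with 409.6 and 492 CPM in KMS-11 and 7.38 and 5.75 CPM in KMS-12 (6.10 ± 0.16, adjusted p = 1.20e-15). In RPMI8226, POU2AF1 stood at 305 and 321 CPM and CD28 at 512 and 469 CPM, near KMS-11.

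The immunoglobulin chain genes read differed between the lines. Listed constant genes summed to 5958 and 6494 CPM in the KMS-11 libraries, nearly all of it the light chain gene IGKC. In KMS-12 they summed to 1591 and 1546 CPM, most of it the heavy chain gene IGHD. IGKC, the kappa light chain constant gene, had 5957 and 6492 CPM in KMS-11 and no read in KMS-12, at least 114941-fold higher (adjusted p = 1.10e-16). IGHD, the delta heavy chain gene, had 1525 and 1496 CPM in KMS-12 and no read in KMS-11, at least 24702-fold higher in KMS-12 (adjusted p = 5.75e-13). Of 11 constant genes tested of 14 listed, 1 was called higher in KMS-11 and 5 in KMS-12. JCHAIN, which joins polymeric antibodies, stood at 4945 and 5444 CPM in KMS-11 and 244 and 265 CPM in KMS-12 (4.35 ± 0.19, adjusted p = 1.98e-11). Reads of immunoglobulin genes may be split among near-identical copies, so single members such as IGHG1 and IGHG4, both higher in KMS-12 here, are uncertain.

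Of genes of the earlier B cell stage, 11 of 27 tested of 32 listed were called higher in KMS-11 and 6 higher in KMS-12. The share called, 63.0%, lay near the 62.9% over all genes tested and below the 70.7% of protein-coding genes. MS4A1, which encodes CD20 and defines mature B cells, had 1 KMS-11 read and 0 KMS-12 reads. PAX5, the B lineage factor silenced in plasma cells, stood at 0.348 and 0.517 CPM in KMS-11 and 0.107 and 0.0728 CPM in KMS-12, from 21 and 5 reads (adjusted p = 0.0192). That call was lost without KMS-11 replicate 2 (adjusted p = 0.102), without either KMS-12 replicate (0.0606 and 0.106), in DESeq2 (0.128) and with no filter (0.0522). SYK, a kinase of the B cell receptor, had no read in KMS-11 and 89.4 and 74.8 CPM in KMS-12, at least 1345-fold higher there (adjusted p = 9.95e-15). PLCG2, a phospholipase further down the same route, was higher in KMS-11, at 190.0 and 224 CPM against 15.6 and 13.4 CPM. The complement receptor gene CR2 had 13.7 and 8.48 CPM in KMS-11 and no KMS-12 read.

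Markers of other cells that a culture could hold were low. T and NK cell markers summed to 41.5 to 50.2 CPM in KMS-11 and 18.9 to 20.0 CPM in KMS-12. Of 8 tested, 3 were called higher in each line. The CD3 chain gene CD3D and the T cell receptor chain gene TRAC had at most 2 reads in either line. CD3G, which encodes another CD3 chain, had 1 KMS-11 read and 167 KMS-12 reads, a ratio of 148 toward KMS-12 (adjusted p = 6.19e-07). Most of the T and NK marker sum in KMS-11 was CD7, at 41.4 and 33.4 CPM. Myeloid markers summed to 2.54 to 2.94 CPM in KMS-11 and 30.9 to 36.5 CPM in KMS-12, where nearly all of it was CSF3R, the granulocyte colony-stimulating factor receptor, at 35.6 and 29.8 CPM against no read in KMS-11. The erythroid and megakaryocyte sum was 5.15 to 6.07 CPM in KMS-11 and 5.75 to 5.81 CPM in KMS-12, with neither of 2 tested genes called. Stromal, endothelial and epithelial markers summed to 49.8 to 50.2 and 41.6 to 44.4 CPM, with 5 of 8 tested called higher in KMS-11 and 2 in KMS-12. The part of such cells in the differences was not tested.

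Antigen presentation genes went in opposite directions by class. Of 16 MHC class II genes, all tested, 11 were called higher in KMS-12 and 1, CD74, higher in KMS-11 (median log2 difference -1.53). HLA-DPA1 had 0.619 and 1.08 CPM in KMS-11 and 31.9 and 31.4 CPM in KMS-12 (-5.23 ± 0.25, adjusted p = 4.08e-12), and HLA-DMB, which loads peptides, had 0.0774 and 0.129 CPM in KMS-11 and 5.06 and 5.06 CPM in KMS-12. HLA-DRA stood at 28.5 and 34.2 CPM in KMS-11 and 24.7 and 30.5 CPM in KMS-12, overlapping and not called (0.18 ± 0.14, adjusted p = 0.279). CD74, the invariant chain, had 659 and 660.4 CPM in KMS-11 and 193 and 191 CPM in KMS-12 (1.78 ± 0.11, adjusted p = 1.47e-10). CIITA, the master regulator of the class, was not called, with 34.02 and 21.9 CPM in KMS-11 and 29.6 and 34.8 CPM in KMS-12.

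Of 18 MHC class I genes, all tested, 13 were called higher in KMS-11 and 1, the peptidase ERAP2, higher in KMS-12 (median log2 difference 1.32). B2M, the shared light chain, had 2076 and 2197 CPM in KMS-11 and 602 and 567 CPM in KMS-12 (1.87 ± 0.17, adjusted p = 6.13e-08). The libraries of B2M did not overlap between the lines. HLA genes are alike and vary between people, and how the authors' counting treated such reads is not given in the sources used here.

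Interferon-stimulated genes were called higher in KMS-11 in 17 of 42 tested of 43 listed and higher in KMS-12 in 2, so fewer were called than over all genes, although the median log2 difference was 1.77. IRF1, an interferon-induced transcription factor, stood at 123 and 95 CPM in KMS-11 and 13.3 and 13 CPM in KMS-12 (3.05 ± 0.17, adjusted p = 7.26e-10). STAT2, which carries the type I interferon signal, had 327 and 318 CPM in KMS-11 and 151 and 163 CPM in KMS-12 (1.04 ± 0.14, adjusted p = 5.58e-06). MX2, an antiviral GTPase, was the reverse, with 2.21 and 2.41 CPM in KMS-11 and 132 and 126 CPM in KMS-12 (-5.80 ± 1.45, adjusted p = 0.0121), a call lost without KMS-11 replicate 1 or 2 (adjusted p = 0.0643 and 0.0608).

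NF-kB pathway genes and targets were mostly called, in both directions: 14 of 29 tested of 31 listed were higher in KMS-11 and 10 higher in KMS-12, or 10 and 11 with library size alone. NFKB2, the precursor subunit of the alternative arm, had 179.9 and 164 CPM in KMS-11 and 42.3 and 38.3 CPM in KMS-12 (2.09 ± 0.10, adjusted p = 3.89e-12). MALT1, the paracaspase that relays antigen receptor signals, was also higher in KMS-11, at 92.4 and 107 CPM against 24.1 and 26.9 CPM (1.96 ± 0.11, adjusted p = 4.32e-11). BIRC2, described above, is a member that was higher in KMS-12.

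Surface adhesion genes were called higher in KMS-11 in 20 of 36 tested of 40 listed and higher in KMS-12 in 7, and 6 of the former had at most 3 KMS-12 reads. CD44, a hyaluronan receptor, stood at 387 and 361 CPM in KMS-11 and 17.5 and 16.6 CPM in KMS-12 (4.46 ± 0.25, adjusted p = 2.15e-07). ITGB5 had 79.1 and 70.5 CPM in KMS-11 against 0.178 and 0.146 CPM in KMS-12, and CD99 24.96 and 24.4 CPM against 0.0356 and 0.146 CPM. The tetraspanin gene CD9 had 25.9 and 30.1 CPM in KMS-11 and no KMS-12 read, at least 516-fold higher. L1CAM, a neural adhesion molecule, had 29.1 and 38.95 CPM in KMS-11 and 0.0356 and 0.109 CPM in KMS-12. ICAM3, a leukocyte ligand of integrins, showed the opposite pattern, with 0.155 and 0.129 CPM in KMS-11 and 96.7 and 85.4 CPM in KMS-12, a ratio of 639 (exact 95% counting interval 309.7 to 1589), adjusted p = 2.96e-15. ITGA4, part of the receptor that anchors plasma cells in marrow, had 101 and 122 CPM in KMS-11 and 134 and 126 CPM in KMS-12 and was not called (-0.23 ± 0.12, adjusted p = 0.106).

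Cytokine and growth factor receptor genes were among the most often called lists, with 19 of 35 tested of 42 listed higher in KMS-11 and 11 higher in KMS-12. The chains of the interleukin-6 receptor, which carries a main growth signal of plasma cells, went in opposite directions. IL6R, the binding chain, had 12.8 and 20.4 CPM in KMS-11 and 131 and 126 CPM in KMS-12 (-2.96 ± 0.19, adjusted p = 2.13e-08). IL6ST, the signalling chain gp130, had 654 and 790.3 CPM in KMS-11 and 151 and 167 CPM in KMS-12 (2.18 ± 0.11, adjusted p = 1.38e-11). Neither chain's libraries overlapped between the lines. FGFR2 had 71.9 and 78.5 CPM in KMS-11 and no KMS-12 read, and IL2RG, the shared chain of several interleukin receptors, 148 and 149 CPM against 21.4 and 18.5 CPM. FLT3 was low in both but higher in KMS-12, from 127 reads against 9, a ratio of 12.5 (exact 95% counting interval 6.37 to 27.9), adjusted p = 9.91e-06. IGF1R did not differ beyond the spread, at 216 and 172 CPM in KMS-11 and 191 and 188 CPM in KMS-12 (0.03 ± 0.11, adjusted p = 0.815).

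Among chemokines and their receptors, 7 of 21 tested of 27 listed were called higher in KMS-11 and 5 in KMS-12. CCL5 had 24.8 and 35.6 CPM in KMS-11 and 0 and 0.146 CPM in KMS-12. CCR10, a homing receptor of antibody-secreting cells, was higher in KMS-12, at 29 and 19.9 CPM against 5.42 and 4.65 CPM (-2.28 ± 0.19, adjusted p = 7.84e-09). CCR9, a gut-homing receptor, had 2.28 and 3.496 CPM in KMS-12 and no read in KMS-11.

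Genes of sugar metabolism and the hypoxia response stood higher in KMS-11 in 25 of 31 listed and tested, with 2 called higher in KMS-12 and a median log2 difference of 1.96. NDRG1, a hypoxia-induced gene, had 594 and 742 CPM in KMS-11 and 12.2 and 10.3 CPM in KMS-12 (5.89 ± 0.14, adjusted p = 4.56e-16). The glycolytic enzyme genes PFKP, GPI and PKM followed, with log2 differences of 3.75, 3.72 and 2.90. LDHA, which makes lactate, stood at 1219 and 1924 CPM in KMS-11 and 283 and 269.9 CPM in KMS-12 (2.51 ± 0.16, adjusted p = 1.55e-09). The glucose transporter gene SLC2A1 had 60.1 and 93.7 CPM against 21.7 and 19.5 CPM (1.90 ± 0.16, adjusted p = 9.14e-08). No library of one line reached the other for these 6 genes, as was so for 79.8% of all genes tested.

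The secretory machinery leaned the same way. Of 31 unfolded protein response and folding genes, all tested, 22 were called higher in KMS-11 and 3 in KMS-12 (median log2 difference 0.92), or 20 and 7 with library size alone. CALR, a lectin chaperone, had 1618 and 1490.2 CPM in KMS-11 and 481 and 511 CPM in KMS-12 (1.65 ± 0.12, adjusted p = 1.55e-09). The disulphide isomerase genes P4HB and PDIA6 were higher too (1.17 ± 0.12, adjusted p = 8.92e-08 and 0.97 ± 0.11, adjusted p = 2.83e-07). PDIA6 had 498 and 483 CPM in KMS-11 and 245 and 254 CPM in KMS-12, with no overlap.

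Sterol synthesis genes were called in both directions, 14 of 24 tested of 25 listed higher in KMS-11 and 6 higher in KMS-12. SREBF2, the transcription factor of the pathway, and the enzyme gene MVD were higher in KMS-11 (1.72 ± 0.13, adjusted p = 1.26e-09 and 2.17 ± 0.15, adjusted p = 5.48e-10). Late enzyme genes TM7SF2 and SC5D were higher in KMS-12 (-3.43 ± 0.14, adjusted p = 6.75e-13 and -1.39 ± 0.13, adjusted p = 2.64e-08).

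Oxidative stress and drug metabolism genes had more calls toward KMS-12, 13 of 29 tested of 36 listed, with 9 toward KMS-11 (median log2 difference -0.53). GSTP1, a glutathione transferase, had 1.39 and 2.58 CPM in KMS-11 and 184 and 149.6 CPM in KMS-12 (-6.40 ± 0.35, adjusted p = 5.63e-07). RPMI8226 was at the KMS-11 end, at 0.148 and 0 CPM. MGST1, a membrane-bound relative, had 18.2 and 16.6 CPM in KMS-11 and 196 and 184 CPM in KMS-12 (-3.45 ± 0.14, adjusted p = 2.75e-13), and MGST2 had 7.77 and 5.9 CPM in KMS-12 and none in KMS-11. AKR1B1, an aldose reductase, was higher in KMS-11 (1.40 ± 0.12, adjusted p = 6.37e-09).

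Genes of cell division were seldom called. Among them, 3 of 30 mitosis genes were called higher in KMS-11 and 1 in KMS-12, while 26 were not called, so the share called lay far below that over all genes. The KMS-11 replicates spread widely for these genes: ASPM, a spindle pole protein, had 162 and 406 CPM in KMS-11 and 59.5 and 69.96 CPM in KMS-12 (2.13 ± 0.48, adjusted p = 0.00738). Its call was lost without KMS-12 replicate 1 (adjusted p = 0.0505) and with only the 4 libraries (0.0590). CENPF and BUB1 were called at 1.74 ± 0.50, adjusted p = 0.0208 and -1.34 ± 0.44, adjusted p = 0.0346, and these calls were lost without KMS-12 replicate 1 (0.0929 and 0.0811) or replicate 2 (0.0848 and 0.108), with only the 4 libraries (0.124 and 0.154) and with only the 6 DMSO libraries (0.0738 and 0.0970), and that of BUB1 with no filter (0.0679). MAD2L1 was called at 0.64 ± 0.25, adjusted p = 0.0405, and with KMS-11 replicate 2 left out the difference was 0.03. Its call was also lost without KMS-12 replicate 1 (0.19) or 2 (0.0665), with library size alone (0.129), in limma-voom (0.0811), with a mean of at least 10 CPM (0.0502), and with only the 4 (0.18) or the 6 DMSO libraries (0.115). The list's median log2 difference was 0.17, and -0.06 with library size alone. Of 35 DNA replication genes, 6 were called higher in KMS-11 and 8 in KMS-12 (median 0.11, or -0.12 with library size alone), among them the helicase gene MCM6 at -1.28 ± 0.12, adjusted p = 3.54e-08 and the polymerase gene POLD1 at 1.59 ± 0.15, adjusted p = 8.47e-08.

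Ribosomal protein genes were called higher in KMS-12 in 30 of 52 and higher in KMS-11 in 10, with a median log2 difference of -0.38. RPS2 stood at 169 and 189 CPM in KMS-11 and 904 and 699.8 CPM in KMS-12 (-2.17 ± 0.15, adjusted p = 3.42e-09), and RPS25 at 88.7 and 103 CPM in KMS-11 and 381 and 336 CPM in KMS-12 (-1.90 ± 0.11, adjusted p = 6.83e-11). Processed copies of ribosomal protein genes could take or lend reads, so these values are uncertain. Mitochondrially encoded genes were called higher in KMS-11 in 8 of 13 and in KMS-12 in 0. Scaled by library size alone, 7 and 0 were called. MT-CO2, a subunit of cytochrome oxidase, had 2696 and 2318 CPM in KMS-11 and 985 and 921 CPM in KMS-12 (1.40 ± 0.15, adjusted p = 1.69e-07).

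**Figure D3:**
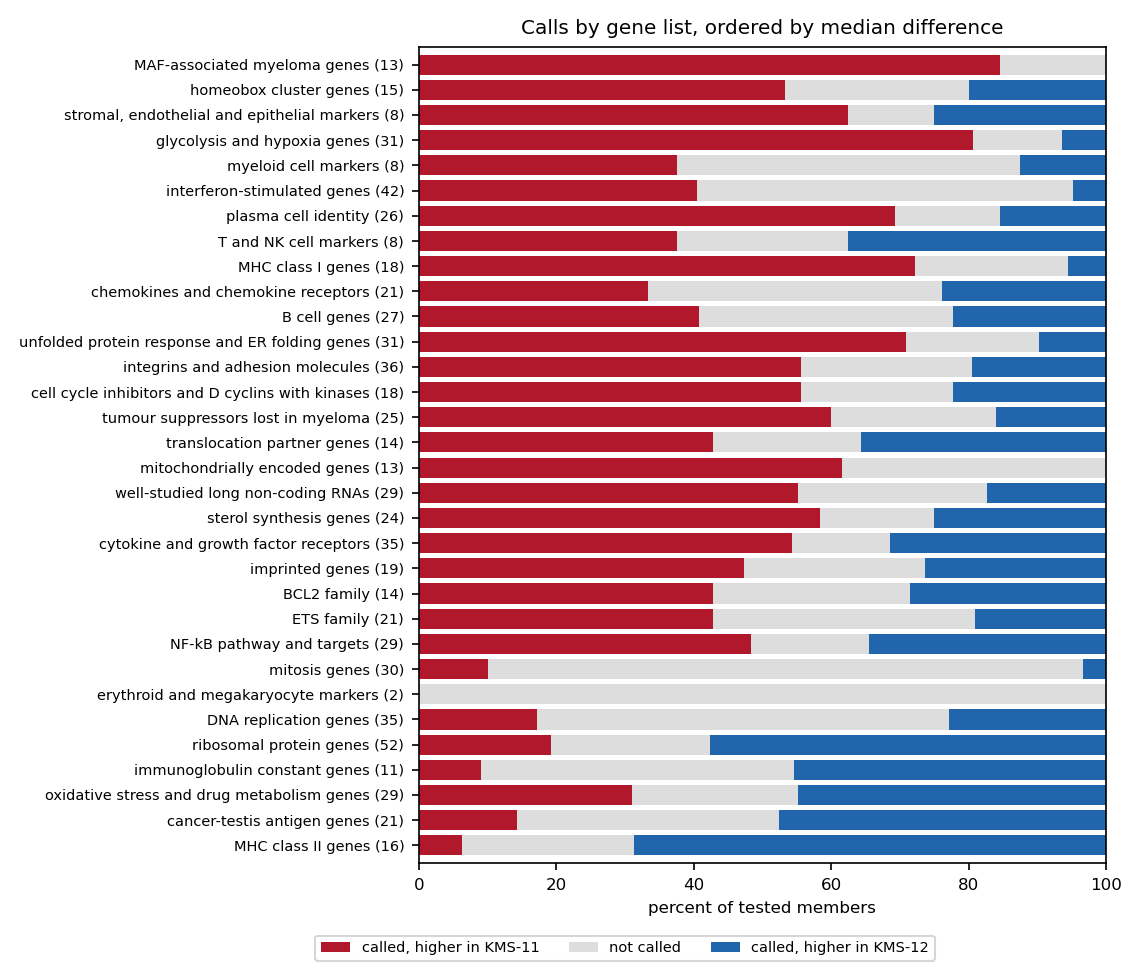
Share of the tested members of each of 32 gene lists called higher in KMS-11 (red), not called (grey) or called higher in KMS-12 (blue), in percent, with the number tested in brackets, ordered by the median log2 difference. Over all genes tested the shares called are 32.7% and 30.2%, and over protein-coding genes 38.2% and 32.5%; MAF-associated genes (11 of 13) and glycolysis and hypoxia genes (25 of 31) lie toward KMS-11, MHC class II genes (11 of 16) toward KMS-12.

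Germline and developmental genes differed by presence. Of 48 cancer-testis antigen genes, normally silent outside the germline, 21 were tested, and 24 had no read in the 4 libraries. Of those tested, 10 were called higher in KMS-12, 8 of them with no KMS-11 read, and 3 higher in KMS-11. MAGEC2 had 26.3 and 26.6 CPM in KMS-12 and no read in KMS-11, at least 432-fold higher (adjusted p = 9.70e-13). MAGEA12, PAGE5 and CSAG1 also had no KMS-11 read, with 23.5 and 30.5 CPM of MAGEA12, 29.6 and 30.4 CPM of PAGE5 and 22.5 and 21.96 CPM of CSAG1 in KMS-12. Homeobox cluster genes leaned to KMS-11, with 8 of 15 tested of 39 listed called higher there, 5 of them with at most 3 reads in KMS-12, and 3 higher in KMS-12. HOXB3 had 5.19 and 3.96 CPM and HOXB4 3.79 and 2.84 CPM in KMS-11, and neither had a read in KMS-12.

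Imprinted genes were called higher in KMS-11 in 9 of 19 tested of 30 listed and higher in KMS-12 in 5. PEG10, a gene of retroviral origin, had 74.1 and 122 CPM in KMS-11 and 0.641 and 0.656 CPM in KMS-12 (7.22 ± 0.34, adjusted p = 2.24e-08), and PEG3 had 19.4 and 14.1 CPM in KMS-11 and no KMS-12 read. Of 21 ETS family genes tested of 27, 9 were called higher in KMS-11 and 4 in KMS-12. ETS2 had 11.8 and 12.1 CPM in KMS-11 and no read in KMS-12, whereas ETV4 stood at 1.66 and 2.97 CPM in KMS-11 and 26.1 and 24.3 CPM in KMS-12 (-3.45 ± 0.25, adjusted p = 2.39e-09). FLI1 was not called, at 62.6 and 82.1 CPM in KMS-11 and 80.7 and 70.7 CPM in KMS-12 (-0.07 ± 0.14, adjusted p = 0.712).

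Among 29 well-studied long non-coding RNAs tested of 34, 16 were called higher in KMS-11 and 5 in KMS-12. The share called was 72.4%, against 54.4% of all 4791 long non-coding RNA genes tested. CRNDE had 78.6 and 93.7 CPM in KMS-11 and no read in KMS-12, at least 1588-fold higher (adjusted p = 1.44e-14). SNHG1, a host gene of small nucleolar RNAs, was higher in KMS-12, at 236 and 224 CPM against 102 and 92.7 CPM (-1.24 ± 0.11, adjusted p = 1.27e-08), as was MIR155HG, the precursor transcript of miR-155, at 6.56 and 11.4 CPM against 0.116 and 0.0861 CPM, a ratio of 87.7 (exact 95% counting interval 37.3 to 271), adjusted p = 4.87e-10. LINC00582 was sparse, with 24 KMS-11 reads and 4 KMS-12 reads. Its adjusted p was 0.0223, and that call was lost without KMS-11 replicate 2 (0.0599), without KMS-12 replicate 2 (0.158) and in DESeq2 (0.221).

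Some large differences lay outside the lists. Among genes with at least 1 CPM in both lines, RELN, a secreted matrix glycoprotein known from neuron migration, led toward KMS-12 with 0.929 and 1.29 CPM in KMS-11 and 415 and 417 CPM in KMS-12 (-8.55 ± 0.29, adjusted p = 2.47e-09). GLDC, the glycine cleavage enzyme, had 1.74 and 2.195 CPM in KMS-11 and 203 and 189.8 CPM in KMS-12 (-6.64 ± 0.15, adjusted p = 1.81e-16). RPMI8226 was low for both, with 3.16 and 1.45 CPM of RELN and at most 0.0414 CPM of GLDC. The other genes toward KMS-12 by this rule were GSTP1 and CCND1 above, MACROD2, LINC01667, MX2, FKBP10, AGRN and CDC14B, with log2 differences from -6.26 to -5.37 for those not given above.

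Toward KMS-11 the largest by the same rule was NFIA, a nuclear factor of development, with 312 and 269 CPM in KMS-11 and 0.748 and 1.35 CPM in KMS-12 (8.11 ± 0.33, adjusted p = 1.28e-08). CELSR1, a cadherin of planar cell polarity, and TEAD1, the DNA-binding partner of YAP, followed at 6.71 ± 0.17, adjusted p = 1.32e-15 and 6.63 ± 0.19, adjusted p = 2.90e-14. THEMIS, known from T cell selection, had 254 and 395 CPM in KMS-11 and 5.095 and 3.86 CPM in KMS-12 (6.17 ± 0.37, adjusted p = 2.26e-06). The remaining genes were CD28 and NDRG1 above, FOXP2, RN7SL3, SLCO4A1 and SCNN1B, from 5.84 to 6.02. RN7SL3 is one of several near-identical signal recognition particle RNAs, so its value is uncertain. In RPMI8226 the means were 402 CPM of NFIA, 70.1 of CELSR1, 131 of TEAD1 and 107 of THEMIS, each above KMS-12.

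Genes read in 1 line only were defined as those with at most 3 reads summed over the libraries of a line and a mean of at least 1 CPM in the other. There were 1094 such genes for KMS-11 (4.66% of those tested) and 792 for KMS-12 (3.37%). In KMS-11, 756 (69.1%) were protein-coding, 206 (18.8%) long non-coding and 78 (7.13%) pseudogenes. The KMS-12 set had another make-up, with 261 (33.0%) protein-coding, 275 (34.7%) long non-coding and 163 (20.6%) pseudogenes, where the genes tested were 60.6%, 20.4% and 9.98%. Median levels were alike, 3.83 CPM for the KMS-11 set and 3.90 CPM for the KMS-12 set. RPMI8226 had at least 1 CPM of 520 (47.5%) of the former and 319 (40.3%) of the latter.

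The JQ1 libraries, which the definition did not use, gave the same picture of the silent side. Of the 1094 genes, 1059 (96.8%) again had at most 3 reads in KMS-12 under JQ1, and of the 792 genes, 730 (92.2%) again had at most 3 reads in KMS-11. On the expressed side, 778 and 525 still had at least 1 CPM in their own line.

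By size, the protein-coding genes read in KMS-11 only were led by CCND2 and MAF. VIM, the intermediate filament vimentin, had 12099 and 13669 reads in KMS-11 and 1 read in KMS-12, a ratio of 29158 (exact 95% counting interval 5233 to 1151720). RPMI8226 also had VIM, at 423 and 417 CPM. TNS3, a focal adhesion protein, ATRNL1, SYNM, which encodes the filament protein synemin, and the kinase gene WNK2 followed, each with 1 or 2 reads in KMS-12. GLUL, glutamine synthetase, had 187 and 237 CPM in KMS-11 and 2 reads in KMS-12, a ratio of 5844 (exact 95% counting interval 1617 to 48261). CRYBB1, a lens crystallin, and UCHL1, a ubiquitin hydrolase of neurons, had no KMS-12 read, with 352 and 435 CPM of CRYBB1 and 297 and 274 CPM of UCHL1 in KMS-11 (at least 7248-fold and at least 5299.8-fold higher). RPMI8226 had no read of UCHL1 either. HGF, the ligand of the receptor MET, had 7521 KMS-11 reads and 3 KMS-12 reads, and was picked after its values were seen.

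The KMS-12 set was led by zinc finger genes of chromosome 19. ZNF90 had 1 read in KMS-11 and 3073 and 2849 reads in KMS-12, a ratio of 5234 (exact 95% counting interval 939 to 206748). ZNF43, ZNF208 and ZNF493 had 1 to 3 KMS-11 reads and KMS-12 levels of 94.1 and 102 CPM, 164 and 168 CPM and 156 and 156 CPM in that order. GABRG1, a subunit of a neurotransmitter receptor, and BCHE, butyrylcholinesterase, each had 1 KMS-11 read, with 51.6 and 55.9 CPM of GABRG1 and 52.3 and 46.1 CPM of BCHE in KMS-12. RUBCNL, an autophagy regulator, and SLC17A9, a vesicular nucleotide transporter, had 2 KMS-11 reads each. DCAF4L2 had 3. SPATA31D1, a testis gene, had no KMS-11 read and 109.7 and 119.7 CPM in KMS-12, at least 1876-fold higher (adjusted p = 9.89e-14).

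Long non-coding RNA genes were as sharply divided. In KMS-12 only, LINC02334 had 8917 and 9366 reads against none in KMS-11, at least 5386-fold higher, and it had none in RPMI8226. LINC01748, TCL6, LINC02864 and LINC02428 had 1 KMS-11 read each and means of 36.1 to 84.0 CPM in KMS-12. In KMS-11 only, ENSG00000283235 had 8162 and 8445 reads against 1, LINC01484 4632 and 4760 against 2, and ENSG00000280604 876 and 1116 against 1. FAM30A, on chromosome 14 at 105917979 to 105932642, had 53.3 and 62.2 CPM in KMS-11 and no read in KMS-12 or RPMI8226. Its adjusted p was 0.0178, and the call was lost without KMS-11 replicate 1 (0.133) or 2 (0.137).

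Promoter windows of the sets differed in their number of CpG dinucleotides. A KMS-11 gene with as many as the median tested gene and a KMS-12 gene with none are shown. The KMS-12 gene lies under the lower quartile of its set, 6, and CRYBB1 of the KMS-11 set has only 3, so the pair overstates the contrast. The windows run from 250 bases before a start given by RefSeq (GRCh38.p14) to 50 after it. That start can differ from the gene's start in the GENCODE annotation, as it does for UCHL1, and some genes have several windows. CG is in capitals, for UCHL1 (KMS-11 only, chr4:41256678-41256977, plus strand, 25 CpG) and SPATA31D1 (KMS-12 only, chr9:81988522-81988821, plus strand, 0 CpG).
UCHL1: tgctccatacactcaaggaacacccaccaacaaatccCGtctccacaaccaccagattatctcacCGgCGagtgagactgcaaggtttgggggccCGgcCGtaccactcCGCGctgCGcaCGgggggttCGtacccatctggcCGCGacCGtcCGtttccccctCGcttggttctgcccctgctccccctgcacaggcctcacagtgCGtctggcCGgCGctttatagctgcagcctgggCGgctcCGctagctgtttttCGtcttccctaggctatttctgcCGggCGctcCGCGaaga
SPATA31D1: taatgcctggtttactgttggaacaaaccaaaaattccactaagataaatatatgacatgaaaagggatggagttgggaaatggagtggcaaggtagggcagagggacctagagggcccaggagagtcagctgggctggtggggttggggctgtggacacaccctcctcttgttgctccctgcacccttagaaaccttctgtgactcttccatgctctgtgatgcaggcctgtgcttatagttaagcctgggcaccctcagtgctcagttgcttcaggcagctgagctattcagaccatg

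In these windows the median number of CpG dinucleotides was 25 over 11512 of 13758 tested protein-coding genes outside chromosome 8 that matched a window (83.7%). It was 24.5 for 589 of 723 genes read in KMS-11 only (81.5% matched) and 11.5 for 201 of 250 read in KMS-12 only (80.4% matched), whose quartiles were 6 and 20. An observed to expected CpG ratio above 0.6 was found in 76.4% of all these genes, 68.9% of the KMS-11 set and 35.8% of the KMS-12 set. Genes of 1 family share sequence, so the windows are not independent, and these shares are a description.

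The differences were not spread evenly along the genome. Over 12299 protein-coding genes with a mean of at least 1 CPM in the 4 libraries, the median log2 difference was 0.05. It was highest on chromosome 5 at 0.77, where 63.7% of genes were called higher in KMS-11, and on chromosomes 21 (0.59) and 10 (0.53). The lowest medians were on chromosome 11 at -0.55, with 57.1% called higher in KMS-12, and on chromosomes 8 (-0.49) and 9 (-0.35). On chromosomes 5, 11, 21, 10, 8 and 9 the sign was kept with library size alone. In consecutive blocks of 50 such genes, chr1:186828953-204127743 (PLA2G4A to SOX13) stood highest at 1.81, with 43 called higher in KMS-11 and 3 called higher in KMS-12, and its neighbour chr1:204403387-213274773 at 1.33. The block chr16:77199397-88811944, which holds MAF, had a median of 1.53, with 44 called higher in KMS-11 and 2 in KMS-12. On the long arm of chromosome 11, 4 blocks in a row from chr11:77514936 to 130144811 had medians from -1.47 to -1.01, with 33 to 41 genes called higher in KMS-12 in each. The gene BIRC2 lies in that stretch. What sets these regional levels was not tested.

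**Figure D4:**
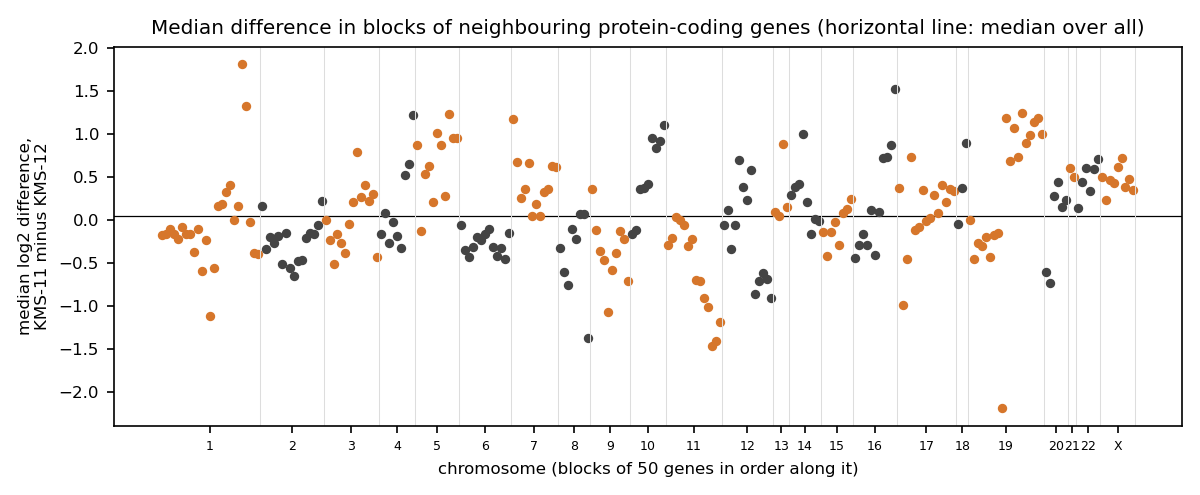
Median log2 difference, KMS-11 minus KMS-12, in consecutive blocks of 50 neighbouring protein-coding genes, in order along chromosomes 1 to 22 and X (colours alternate by chromosome; the horizontal line is the median over all such genes, 0.05). Blocks of chromosome 1 reach 1.81, and the lowest block, on chromosome 19, lies at -2.20.

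The block with the lowest median was chr19:19528861-32387667 (YJEFN3 to ZNF507), at -2.20, with 41 of 50 genes called higher in KMS-12 and 8 in KMS-11. It covers clusters of KRAB zinc finger genes, a large family of repressors that bind DNA through tandem fingers, many of them against transposons. The family was chosen for description after these values were seen. Of 38 ZNF genes tested in the block, 37 were called higher in KMS-12 and 1 in KMS-11, and 19 were read in KMS-12 only. Their median level was 1.69 CPM in KMS-11, 46.4 CPM in KMS-12 and 8.64 CPM in RPMI8226, where 14 of the 19 had at least 1 CPM. By the same count, of 841 other protein-coding genes tested on chromosome 19, 13 (1.55%) were read in KMS-12 only, against 32 of 244 ZNF genes (13.1%), and of 238 ZNF genes on other chromosomes, 11 (4.62%). Farther along chromosome 19, 7 ZNF genes were read in KMS-11 only.

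**Figure D5:**
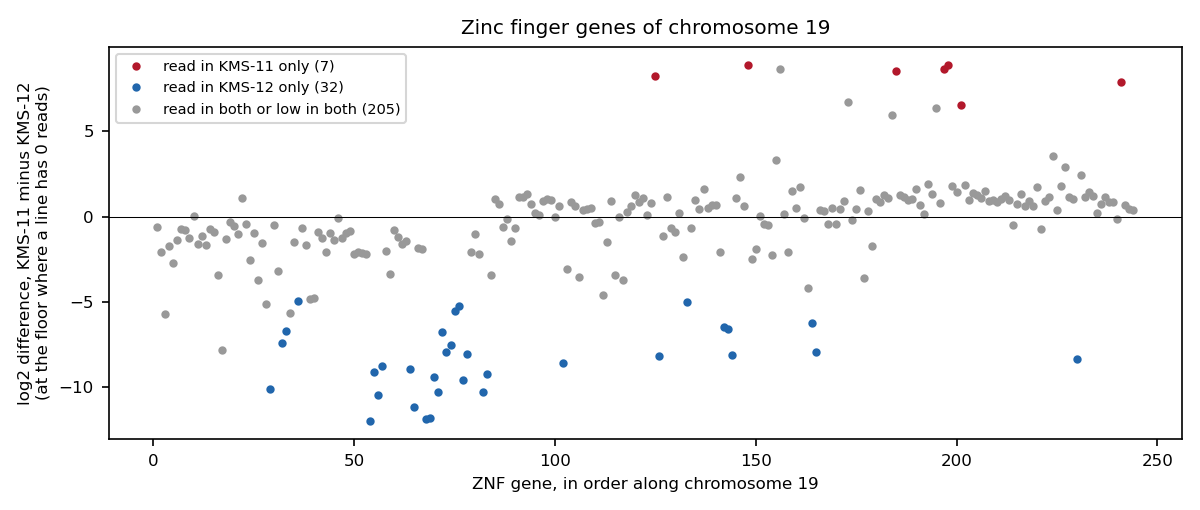
Log2 difference, KMS-11 minus KMS-12, of each of 244 tested ZNF genes in order along chromosome 19, with genes at 0 reads in 1 line set to the floor of 3 counts. Of the 32 genes read in KMS-12 only (blue), 19 lie in the block described above, and the 7 read in KMS-11 only (red) all lie farther along.

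Genes silent in 1 line also lay next to each other. There were 34 runs of at least 3 consecutive tested protein-coding genes read in the same line only. The longest was 11 zinc finger genes at chr19:21804949-23147219, from ZNF43 and ZNF208 to ZNF728 and ZNF730, read in KMS-12 only. Another 4, ZNF90, ZNF486, ZNF737 and ZNF626, lay at chr19:20077994-20661596, and 5 at chr7:57450177-64266931, from ZNF716 to ZNF679. On chromosome X, CSAG1, MAGEA12, CSAG3 and MAGEA6 formed a run of 4 in KMS-12, and ZMAT1, BEX5, TMSB15A, ARMCX5, GPRASP1 and GPRASP2 a run of 6 in KMS-11. In KMS-11 the longest others had 4 genes: SKAP1, HOXB3, HOXB4 and HOXB7 on chromosome 17, and ATRNL1, GFRA1, HSPA12A and SHTN1 on chromosome 10. Near-identical neighbours in a cluster may share reads, which makes single members uncertain.

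The promoters of the zinc finger cluster are themselves alike, which is why 4 of them are shown. They come from RefSeq (GRCh38.p14), each 300 bases 5′ to 3′ on the gene's strand, at chr19:20077750-20078049 (ZNF90, plus), chr19:21396883-21397182 (ZNF493, plus), chr19:21836133-21836432 (ZNF43, minus) and chr19:22010894-22011193 (ZNF208, minus). Capitals mark the word CCAATCAG, which contains the CCAAT box and was picked after the sequences were seen.
ZNF90: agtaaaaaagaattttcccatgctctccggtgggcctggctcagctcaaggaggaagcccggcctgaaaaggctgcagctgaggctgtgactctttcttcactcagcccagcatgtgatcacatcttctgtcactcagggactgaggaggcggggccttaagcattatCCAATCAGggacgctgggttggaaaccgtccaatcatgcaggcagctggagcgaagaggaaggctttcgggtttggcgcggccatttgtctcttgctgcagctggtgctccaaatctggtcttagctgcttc
ZNF493: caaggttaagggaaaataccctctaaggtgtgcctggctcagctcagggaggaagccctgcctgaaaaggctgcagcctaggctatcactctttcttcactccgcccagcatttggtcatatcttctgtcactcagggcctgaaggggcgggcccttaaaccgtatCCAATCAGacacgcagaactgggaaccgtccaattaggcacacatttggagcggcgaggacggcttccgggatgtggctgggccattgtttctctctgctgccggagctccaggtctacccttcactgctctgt
ZNF43: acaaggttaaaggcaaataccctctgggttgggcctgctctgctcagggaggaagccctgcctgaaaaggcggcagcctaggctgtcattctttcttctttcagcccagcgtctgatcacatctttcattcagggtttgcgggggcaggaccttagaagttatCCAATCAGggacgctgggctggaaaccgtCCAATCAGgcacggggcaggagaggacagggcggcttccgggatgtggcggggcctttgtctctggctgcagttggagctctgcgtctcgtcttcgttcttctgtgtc
ZNF208: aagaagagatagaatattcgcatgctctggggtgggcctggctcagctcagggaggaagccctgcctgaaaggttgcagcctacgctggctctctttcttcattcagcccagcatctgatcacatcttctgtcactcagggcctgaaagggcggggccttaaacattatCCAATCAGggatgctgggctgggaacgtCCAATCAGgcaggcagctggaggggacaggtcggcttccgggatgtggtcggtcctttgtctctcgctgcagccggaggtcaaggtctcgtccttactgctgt
On either strand, CCAATCAG or its complement CTGATTGG occurs in a window of 17 of 25 ZNF genes of chromosome 19 read in KMS-12 only (68.0%), and in 40 of 188 other tested ZNF genes of that chromosome (21.3%). Within the block it occurs in 13 of 13 ZNF genes read in KMS-12 only and in 16 of 17 other tested ZNF genes (94.1%). Of tested ZNF genes on other chromosomes 27 of 199 (13.6%) have it, and of all genes with a window 1298 of 27305 (4.75%), or 1393 of 35116 windows (3.97%). All these counts cover only genes that matched a window. With or without a window, 32 ZNF genes of chromosome 19 were read in KMS-12 only, 19 of them in the block.

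In the JQ1 libraries of the same lines, most differences were called again in the same direction. Both comparisons came from the same fit, with a shared filter, scaling and estimate of spread, so their calls are not independent. Of the 14780 genes called under DMSO, 10596 (71.7%) were called in the same direction under JQ1, 513 in the opposite direction and 3671 not at all. Over all genes tested, 59.1% were called under JQ1, 31.2% higher in KMS-11 and 27.9% higher in KMS-12. Of the 9989 called by 2-fold or more, 7681 (76.9%) had the same direction and 152 the opposite. BCL2 had a log2 difference of -3.72 under JQ1 against -3.39 under DMSO, and CCND1 -3.88 against -6.32. JQ1 itself can change a gene, so a lost or turned call under JQ1 does not bear on the untreated level.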

How the data were processed

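Total RNA of the lines was sequenced after ribosomal depletion with a stranded kit, per the labels' protocols. The authors deposited raw read counts per Ensembl gene for all 12 libraries. The submitters' processing notes name DESeq2 and hg38. For the aligner, the counting annotation and the strand setting the entry is "not given in the sources used here", so reads of overlapping or antisense genes may be mixed.

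From these counts, edgeR 4.0.16 in R 4.3.3 was used: genes were kept with filterByExpr (minimum count 10, total 15), 23493 of 60666 identifiers (38.7%), scaled by TMM and fitted by quasi-likelihood with 1 mean for each of 6 groups. KMS-11 DMSO was set against KMS-12 DMSO with the F test, and p-values were adjusted by Benjamini-Hochberg over all genes tested. The tested genes held 99.9% of counts. Errors after ± are approximate standard errors, the absolute log2 difference divided by the square root of its F statistic. They rest on the spread estimated over all 6 groups, with 2 libraries per line. Symbols were found for 99.6% of identifiers and positions for 96.3%, from GENCODE 29 (GRCh38). In simulated counts (21363 genes), differences were put into few genes, all with a mean of at least 5 CPM, and the rest had none. Of 81 genes changed 1.5-fold, 55 changed 2-fold and 64 changed 4-fold, 35.8%, 85.5% and 98.4% were recovered, and 10.3% of calls were false. In the data 62.9% of genes were called, so these rates need not hold there.

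Replicate numbers were not taken to pair libraries: same-numbered KMS-11 and KMS-12 libraries had a correlation of deviations of 0.0484, and the 15 pairs of groups ranged from -0.0928 to 0.375. Alternatives were DESeq2 1.42.0, limma 3.58.1 (voom), RLE or library-size scaling, other filters, fewer libraries, each library left out, and a replicate block. The members and lists were chosen with earlier results of these data known. Named genes are the 10 protein-coding and 5 long non-coding genes with the largest fold in each direction among genes read in 1 line only, the 10 largest differences in each direction among genes with a mean of at least 1 CPM in both lines and no overlap of their libraries, a list of myeloma genes, and up to 4 called members of each gene list. B2M, CCR1, CD27, CD44, CD9, CD200, CDKN1A, CIITA, GPRC5D, HGF, HLA-DRA, IKZF3, ITGA4, LDHA, LILRB4, MYCN, MYEOV, NCAM1, SLC2A1 and TNFRSF13B were added after their values were seen and were not run under the alternatives. Immunoglobulin variable genes and sex-chromosome markers were left out. Some members of the myeloma, MHC class I and chemokine lists are counted with their lists and not reported singly here.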

Additional observations from a re-analysis of the deposited data

Results flagged for a closer look

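For 9 named genes the difference between the lines was called in opposite directions under DMSO and under JQ1. The change of the difference was also called in edgeR's quasi-likelihood test (Benjamini-Hochberg adjustment). Both line differences and their change come from the same fit, so opposite calls all but ensure a call of the change. That call is therefore no further support. The values below are the DMSO line difference minus the JQ1 line difference on the log2 scale. For AHNAK it was 3.69, since KMS-12 went from 136 and 157 CPM to 1704 and 2050 CPM while KMS-11 stayed between 588 and 677 CPM. For TENT5C it was 3.52, with KMS-12 at 59.3 and 63.5 CPM under DMSO and at 560.5 and 562 CPM under JQ1. For the folding enzyme gene P4HB it was 3.46, with 701 and 713 CPM in KMS-12 under DMSO and 3188 and 3386 CPM under JQ1, and with KMS-11 at 1569 and 1614 CPM and then at 619 and 727 CPM. For PDIA6, another folding enzyme gene, it was 1.65, with KMS-11 at 498 and 483 CPM under DMSO and 165 and 209 CPM under JQ1, and KMS-12 at 245 and 254 CPM and then at 290.5 and 306 CPM. The value of the chaperone gene CALR was 2.27. MCL1 had a value of 1.43, GNAS of 2.15 and MT-CO1 of 1.51. ETV4 had the value -10.74, which is no bound because the JQ1 libraries of KMS-12 held no ETV4 read, while those of KMS-11 stood at 0.618 and 1.18 CPM. With library size alone, an alternative chosen after seeing the data, 7 of the 9 differences under JQ1 were still called, and those of GNAS (adjusted p = 0.0515) and MT-CO1 (adjusted p = 0.0810) were not. Changes within a line also depend on the scaling. The TMM factor of KMS-12 was 1.23 in both DMSO libraries and 0.724 and 0.718 in the JQ1 libraries. Without it the rises in KMS-12 would be smaller, and PDIA6 would show none. Changes within a line were not tested.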

How the results depend on the processing

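Of 185 named genes, 164 kept their direction and call under each of the 15 alternatives in which they were tested. A mean of at least 10 CPM, which tests 10098 genes, gave 7577 calls, 3810 higher in KMS-11 and 3767 higher in KMS-12, and 3350 by 2-fold or more. DESeq2 gave 13425 calls, limma-voom 15244 and a test against 1.5-fold 10404. Leaving out a library gave 12923 to 14061 calls, 6713 to 7280 higher in KMS-11, 6174 to 6781 higher in KMS-12 and 9258 to 9679 by 2-fold or more, where the lone library is assumed to vary like the other groups. With 5 CPM in place of 1, 795 genes were read in 1 line only, against 1886, and with 0 reads in place of at most 3, 1329. The replicate block gave 14783 calls, 14624 of them shared, and changed the call of no named gene, although the numbers are not known to pair the samples. Against 1.5-fold, CCND3 (adjusted p = 0.123), CDKN2A (0.0514), BUB1 (0.0877), MAD2L1 (0.336), MCL1 and CRBN were not called. Uncalled genes near 0 changed sign. With library size alone MYC was at -0.013, PRDM1 at -0.10 and IGF1R at -0.17, and with a mean of at least 10 CPM IGF1R was at -0.0024. With a library left out, MYC ranged from -0.029 to 0.38, FLI1 from -0.28 to 0.12, TNFRSF17 from -0.32 to 0.085, TRAF3 from -0.066 to 0.023 and IGF1R from -0.14 to 0.18. With library size alone TRAF3 was called at -0.23. The cause of these changes was not tested. With 2 libraries per line, small differences are the least certain, and levels at or under 0.129 CPM cannot be told from 0 reads.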
